A study of Sus scrofa with 16 samples.

Results

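The genes described here are 10 genes of the vascular endothelium, the cell layer that lines blood vessels: PECAM1, VWF, CDH5, KDR, FLT1, TEK, TIE1, ENG, CLDN5 and ICAM2. They were chosen by name, as the probe sets that carry 1 of these symbols and no other. All 10 genes were measured, by 19 of the 23999 probe sets that are not controls. Of these genes 6 had more than 1 probe set and 4 (TIE1, ENG, CLDN5 and ICAM2) had 1. The tissue was left ventricle of 16 Yorkshire x Landrace pigs aged 2 to 3 months, sampled 3 weeks after an operation that left 8 of them with an infarct of the heart muscle (myocardial infarction, MI) and was a sham in the other 8 (Sham). By the labels, 4 females and 4 neutered males made up each group, though 1 animal labelled female, MI 7, carried a male-level signal of a Y chromosome gene. Every pig has its own Affymetrix porcine array. The labels name no part of the ventricle and no distance from the infarct, which limits what the MI group can stand for. The labels name no altered gene in either group.

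Endothelial cells are held together at their junctions by VE-cadherin (CDH5) and claudin-5 (CLDN5), and PECAM1 and ICAM2 are adhesion proteins that lie at the same borders and guide leukocytes across. The growth factor VEGF acts through the tyrosine kinase receptors KDR (VEGFR2), the main signalling receptor, and FLT1 (VEGFR1), which binds VEGF tightly and has a secreted form. TEK (TIE2) is the receptor of the angiopoietins and TIE1 is its partner, ENG (endoglin) is a co-receptor for BMP9 and TGF-beta, and VWF is the clotting protein that endothelium stores and releases. In the heart most of these genes are read as markers of the capillary bed, and the VEGF receptors also as regulators of its growth.

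Values below are log2 signals as deposited. A probe set counted as above background where its mean in either group exceeded 4.99, which no value of the 23 control probe sets without target RNA exceeded. Of the 19 endothelial probe sets 15 were above background and 4 were not. A comparison passed where the adjusted p of limma, taken over all 23999 probe sets, was under 0.05. The myocardium gave its own markers strongly: 9 of 10 listed cardiomyocyte genes were measured, their mean per array ran from 13.68 to 13.82 in MI and from 13.73 to 13.87 in Sham, and none of the 9 passed between the groups by limma (0 also at an unadjusted p under 0.05).

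The arrays fell into 2 technical sets that no label records. Poly-A spike-in signal minus hybridisation control signal was -1.88 ± 0.32 (log2, SD) in 11 arrays, called set A here, and -4.57 ± 0.45 in the other 5, called set B, which are those of MI 7, MI 8 and Sham 6 to Sham 8. The sets were unbalanced by labelled sex: set B held 2 MI females and 0 MI males, and 1 Sham female and 2 Sham males. Actin control probe sets at the 3' end exceeded those at the 5' end, a gap that grows with RNA breakage, by 2.64 ± 0.29 in set A and 1.42 ± 0.14 in set B. The gap averaged 2.39 ± 0.59 in MI and 2.12 ± 0.68 in Sham. The pig labelled MI 7 and female had an EIF1AY signal (a Y chromosome gene) of 9.51, where animals labelled male had 9.40 to 9.96 and the other females 3.00 to 3.51. The label was kept.

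In the comparison of all 16 arrays with group and sex in the model, no endothelial probe set above background passed between MI and Sham. Under other settings on the same 16 arrays, VWF Ssc.978.2.A1_at passed with the animal number as a block (adjusted p = 0.0159 by limma) and with array weights (0.0417), and KDR passed as the mean of its probe sets (0.0362). Of the 19 probe sets 1 passed, a second probe set of KDR that lay below background on every array, against 10.5% of all probe sets (2527 of 23999, with 5.39% higher and 5.14% lower in MI). Of the 15 above background 0 passed by limma, against 8.02% of all probe sets above background. In all 4 of the 19 had an unadjusted p under 0.05, 2 of them above background, against 23.6% of all probe sets. With the array set as a block 1 of the 19 passed, against 12.9% of all. Differences over the 19 ran from -0.35 to 0.39 on the log2 scale with a median of 0.07, and the median over all probe sets was 0.00. The MI and Sham values overlapped for each of the 19, whereas they did not overlap for 2.96% of all probe sets. In a bulk sample a change in the number of endothelial cells and a change in RNA per cell cannot be told apart.

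**Figure D1:**
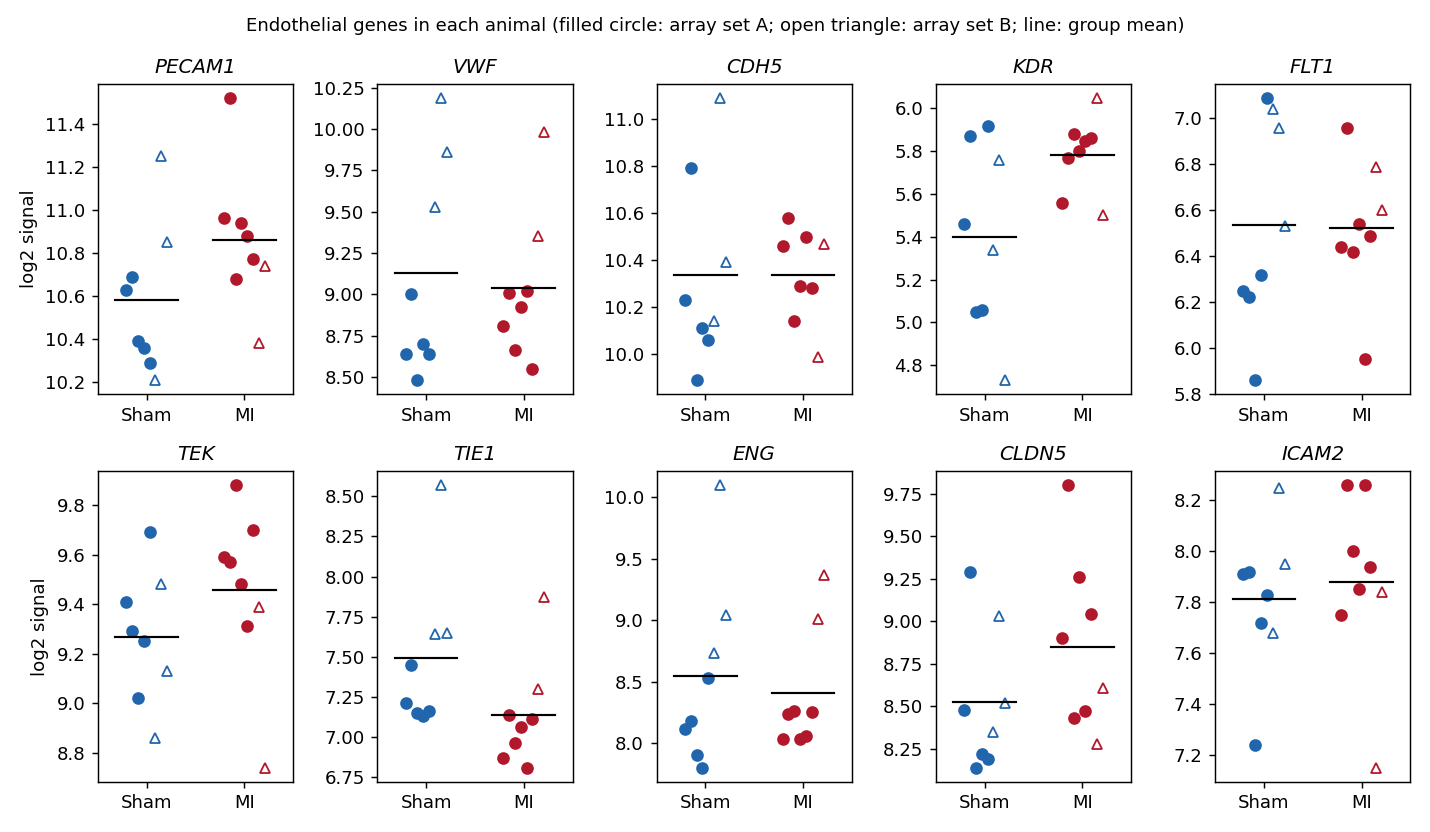
Log2 signal (vertical axes) of the brightest probe set of each of the 10 genes in the 8 Sham and 8 MI animals. Circles are arrays of set A, open triangles arrays of set B and lines the group means; the groups overlap for every gene, and the triangles of VWF and ENG lie above all circles.

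KDR gave the largest difference among the VEGF receptors. Its probe set Ssc.15999.1.S1_at ran from 5.50 through a median of 5.83 to 6.05 in MI and from 4.73 through 5.40 to 5.92 in Sham. All 8 MI animals lay above the sham mean, but only MI 7 lay above the highest Sham animal, and the Sham animals were spread more widely (SD 0.43 against 0.18, n = 8 each). MI exceeded Sham by 0.39 (SE 0.15, 95% interval 0.06 to 0.71), 1.31-fold, with an unadjusted p of 0.0232 and an adjusted p of 0.13 by limma, so KDR did not pass. Sham 8 was the lowest of all 16 animals, and without it the difference was 0.30 (adjusted p = 0.229). KDR passed without Sham 2 (0.49, adjusted p = 0.0307 by limma) and when both KDR probe sets were averaged (0.35, 0.0362). The range was 0.0307 to 0.614 over 29 alternatives. That average includes the probe set that lay below background on every array.

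The other KDR probe set, Ssc.15999.1.A1_at, shares its accession with the first and ran from 3.95 to 4.49 in MI and from 3.64 to 4.04 in Sham. It was the single endothelial probe set that passed (0.31, SE 0.08, adjusted p = 0.0169 by limma), and 0 of its 16 values exceeded the background of 4.99. It did not pass within set A (0.27, adjusted p = 0.0919) or within set B (0.24, 0.536). The control probe sets without target averaged 3.80 ± 0.03 per array in MI and 3.73 ± 0.05 in Sham (exact permutation test, two-sided, p = 0.00684, n = 8 each), and the part of that shift in the result was not tested.

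FLT1, the other VEGF receptor, had differences near 0 for its probe sets above background. Its probe set Ssc.3872.1.S1_at ran from 5.95 through 6.51 to 6.96 in MI and from 5.86 through 6.43 to 7.09 in Sham, with a difference of -0.01 (95% interval -0.38 to 0.36, adjusted p = 0.982 by limma). A second one, Ssc.16000.1.S1_at, followed the first closely and differed by -0.05 (-0.49 to 0.40, adjusted p = 0.924). As a fold of MI over Sham, the interval of the first runs from 0.766 to 1.29. The sign of both turned positive within set A (0.19 for each, adjusted p = 0.618 and 0.652). The last FLT1 probe set, Ssc.16000.1.A1_at, lay below background with means of 4.51 in MI and 4.28 in Sham (0.23, adjusted p = 0.0552). It passed by the exact permutation test with adjustment over all probe sets (0.0226), which called 11.6% of them, and also without MI 4 (0.0445) or Sham 2 (0.0235), without the sex term (0.0448), with array weights (0.0416) and with trend and robust estimation (0.0454), in a range of 0.0226 to 0.601 over 27 alternatives.

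The balance of the 2 VEGF receptors was taken as the KDR minus FLT1 signal within each array, from which a uniform scaling of the array drops out. It ran from -1.19 through -0.74 to -0.10 in MI and from -1.81 through -1.18 to -0.35 in Sham, and the groups overlapped. Its mean was -0.74 ± 0.34 in MI and -1.14 ± 0.48 in Sham, 0.40 higher in MI (exact permutation test, two-sided, n = 8 each, p = 0.0813). Within set A the difference was 0.20 (exact p = 0.39). The lowest value was that of Sham 8, whose KDR signal lay below background.

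The angiopoietin receptors gave no passing difference. TEK, read by Ssc.4753.1.A1_at, ran from 8.74 through 9.52 to 9.88 in MI and from 8.86 through 9.27 to 9.69 in Sham. Of the 8 MI animals 7 lay above the sham mean, while MI 8 was the lowest of all 16. The difference was 0.19 (95% interval -0.09 to 0.48, adjusted p = 0.438 by limma). A dimmer TEK probe set, Ssc.15902.1.S1_at, differed by 0.12 (adjusted p = 0.705), and the last, Ssc.15902.1.A1_at, lay below background on all arrays with a difference of 0.10 (adjusted p = 0.476).

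TIE1 was the endothelial gene with the largest lower signal in MI. It ran from 6.81 through 7.08 to 7.87 in MI and from 7.13 through 7.33 to 8.57 in Sham. Among the MI animals 5 lay below every Sham animal and 1, MI 8, lay above the sham mean. The difference was -0.35 (SE 0.20, 95% interval -0.77 to 0.06, adjusted p = 0.299 by limma). Blocking on the array set gave -0.26 and set A alone -0.24 (adjusted p = 0.195 and 0.129), and it stayed below 0 under all 28 alternatives (-0.45 to -0.18), passing under none of them.

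**Figure D2:**
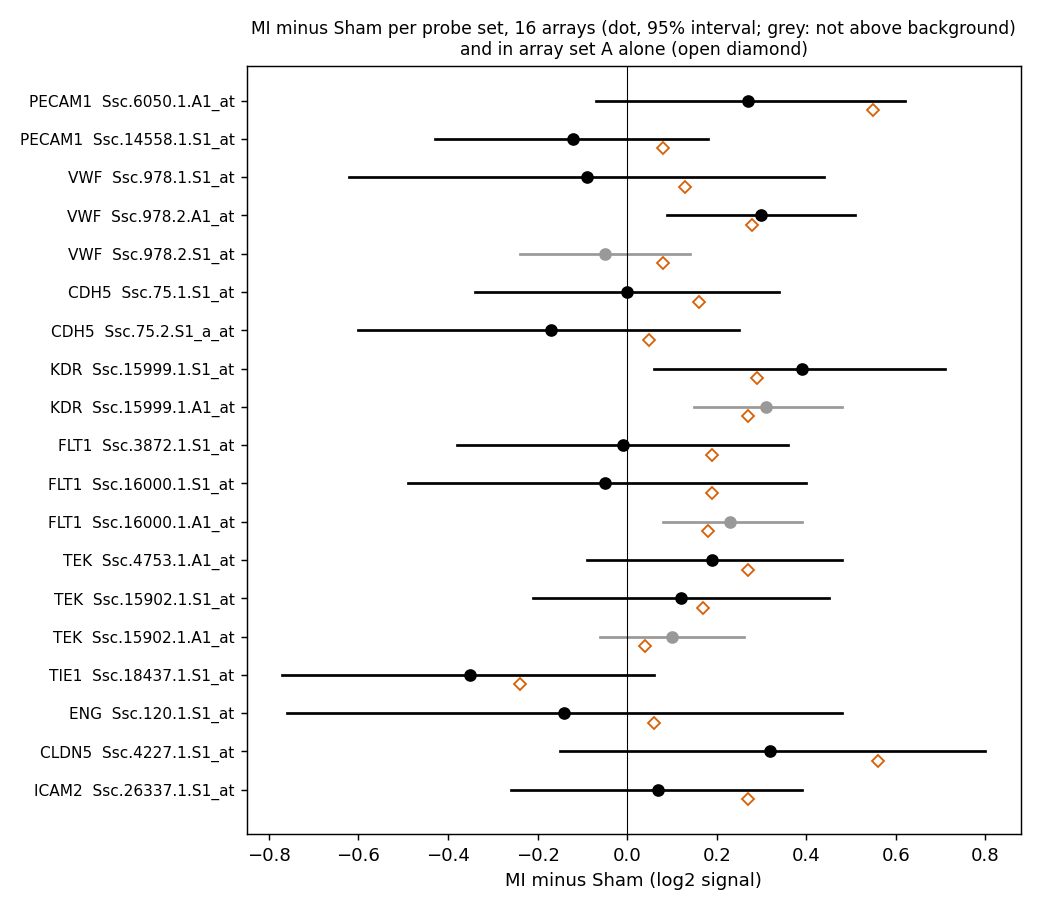
MI minus Sham on the log2 scale (horizontal axis) for the 19 endothelial probe sets, with 95% intervals from limma over 16 arrays and, as open diamonds, the difference within array set A. Among probe sets above background, the intervals of KDR Ssc.15999.1.S1_at (0.06 to 0.71) and of VWF Ssc.978.2.A1_at (0.09 to 0.51) lie above 0 before adjustment. Grey marks the 4 probe sets not above background. Of these, KDR Ssc.15999.1.A1_at (0.15 to 0.48) and FLT1 Ssc.16000.1.A1_at (0.08 to 0.39) also lie above 0.

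PECAM1, the platelet endothelial adhesion molecule that also marks platelets and leukocytes, gave the 1 endothelial probe set of 19 that passed within array set A. Its brighter probe set, Ssc.6050.1.A1_at, ran from 10.38 through 10.83 to 11.52 in MI and from 10.21 through 10.51 to 11.25 in Sham. MI 7 was the single MI animal below the sham mean, and Sham 7 stood well above the other Sham animals. Over 16 arrays the difference was 0.27 (SE 0.16, 95% interval -0.07 to 0.62, adjusted p = 0.344 by limma). Within set A the 6 MI animals ran from 10.68 to 11.52 and the 5 Sham animals from 10.29 to 10.69, so that 5 of 6 MI animals exceeded every Sham animal. There it rose by 0.55 (SE 0.12, adjusted p = 0.0213 by limma), where 9.68% of all probe sets passed. The exact permutation test over the 462 splits of set A gave p = 0.00649 for it, two-sided and unadjusted. That test has no sex term and reuses the arrays on which this probe set was singled out, so it is not a separate test. Without MI 2 the set A difference was 0.40 (adjusted p = 0.0787) and without Sham 4 it was 0.46 (0.0861), and with either left out it no longer passed.

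Within set B, with 2 MI and 3 Sham animals, the same PECAM1 probe set differed by -0.21 (adjusted p = 0.845 by limma). The difference between the sets in the MI effect was 0.69 (SE 0.31, adjusted p = 0.5 over all probe sets), and 0.00417% of all probe sets passed that test. The markers of the other cells that carry PECAM1 gave these values. Of 12 listed leukocyte genes 10 were measured, 9 above background, and 4 rose in MI (CD14, CD3D, CD8B and CD247) while 0 fell, where 7.63% of all genes, each read by its brightest probe set, passed in either direction. The mean of the leukocyte genes per array ran from 6.66 to 7.14 in MI and from 6.50 to 6.94 in Sham. CD14, a monocyte receptor, rose by 0.76 (adjusted p = 0.00314) and CD3D, a T cell receptor chain, by 0.43 (0.0116). CD8B, a T cell co-receptor, rose by 0.30 (0.0206), and CD247, another T cell receptor chain, by 0.34 (0.0248). CD3E, a further chain of that receptor, named here after its value was seen, differed by -0.26 (0.443). The other probe sets of CD14 and CD247 did not pass by limma. A second CD14 probe set, above background, differed by 0.28 (adjusted p = 0.056). Another CD247 probe set above background differed by 0.29 (0.0544), and those below background by 0.05 (0.751) and 0.08 (0.754). The calls of CD8B and CD247 were lost within set A (0.131 and 0.119) and among the 16000 brightest probe sets (0.0515 and 0.0552), that of CD8B with the animal number as a block (0.067), and that of CD247 when MI 4, MI 6 or Sham 3 was left out (0.0506 to 0.0513). Of 8 listed platelet genes 3 were measured, and ITGA2B, GP9 and PPBP gave no passing difference (0 by limma, 0 before adjustment at 0.05), with a mean per array of 6.61 to 6.96 in MI and 6.46 to 6.80 in Sham. PTPRC, the general leukocyte antigen, named here after its value was seen, differed by -0.24 (adjusted p = 0.312). The part of these cells in the PECAM1 signal was not tested.

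The second PECAM1 probe set, Ssc.14558.1.S1_at, gave another result between the groups. It ran from 9.67 through 9.90 to 10.51 in MI and from 9.69 through 10.03 to 10.68 in Sham, a difference of -0.12 (95% interval -0.43 to 0.18, adjusted p = 0.675 by limma), and 0.08 within set A (adjusted p = 0.71). Both probe sets carry the same accession and correlated over the 16 arrays (Pearson r = 0.74).

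The gap between the 2 PECAM1 probe sets within an array separated MI from Sham completely. This comparison was chosen after the values were seen. The brighter minus the dimmer signal was 0.89, 1, 0.86, 1.01, 1.01, 0.83, 0.70 and 1 in MI 1 to MI 8. In Sham 1 to Sham 8 it was 0.57, 0.35, 0.51, 0.65, 0.29, 0.52, 0.57 and 0.69. The lowest MI animal (MI 7, 0.70) thus lay just above the highest Sham animal (Sham 8, 0.69), and both belong to array set B. The mean was 0.91 ± 0.11 in MI and 0.52 ± 0.14 in Sham (n = 8 each), a difference of 0.40 (SE 0.08). Fitted over all 3264 pairs of probe sets of 1 gene, both above background, it passed with an adjusted p of 0.00821 by limma, as did 8.09% of such pairs. The groups did not overlap for 1.75% of the pairs. The other pairs of endothelial probe sets above background did not pass between MI and Sham by limma. Their differences were 0.17 for CDH5 (adjusted p = 0.494), 0.04 for FLT1 (0.872), 0.07 for TEK (0.703) and -0.39 for VWF (0.501). The difference was 0.40 with the array set as a block (adjusted p = 0.00457), 0.46 within set A (0.0181) and 0.26 within set B (0.728), and it passed without each single animal.

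**Figure D3:**
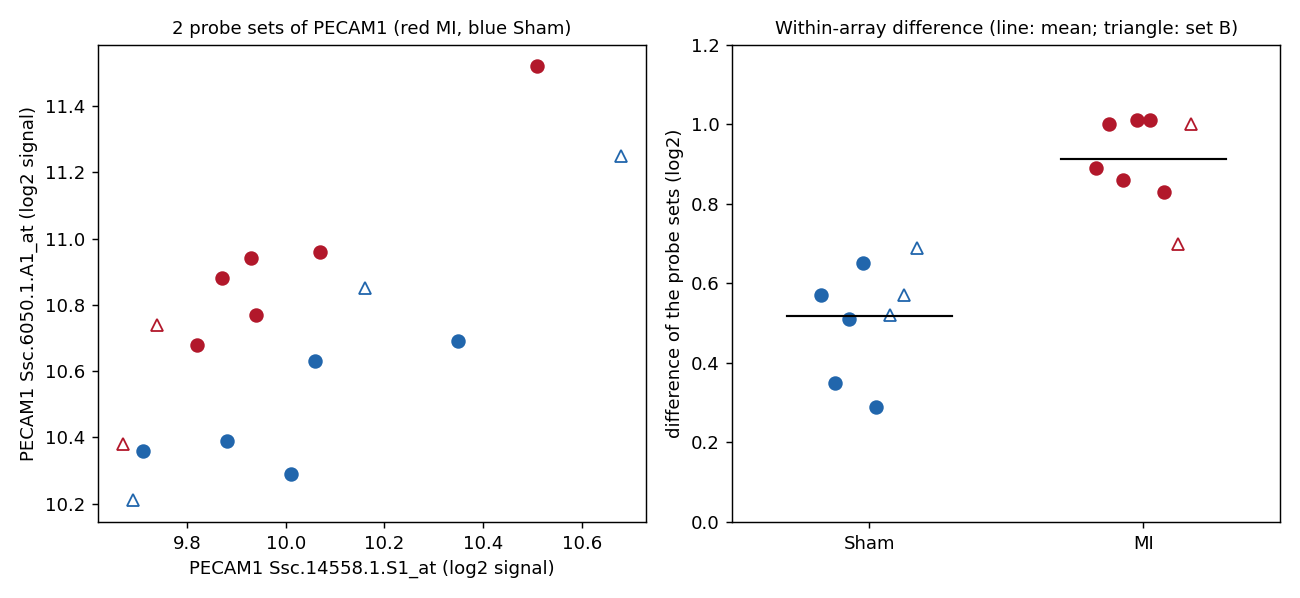
Left, the 2 probe sets of PECAM1 against each other in each animal (log2 signal); right, their difference within each array in Sham and MI. The 8 MI animals lie between 0.70 and 1.01 and the 8 Sham animals between 0.29 and 0.69.

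VE-cadherin did not pass between the groups. CDH5, read by Ssc.75.1.S1_at, ran from 9.99 through 10.38 to 10.58 in MI and from 9.89 through 10.19 to 11.09 in Sham. Both groups averaged 10.34 (SD 0.20 in MI and 0.41 in Sham), with a difference of 0.00 (95% interval -0.34 to 0.34, adjusted p = 0.999 by limma). Its other probe set, Ssc.75.2.S1_a_at, differed by -0.17 (-0.60 to 0.25, adjusted p = 0.667), and Sham 7 was the highest of all 16 animals in both.

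CLDN5, the tight junction protein of endothelium, ran from 8.28 through 8.76 to 9.80 in MI and from 8.14 through 8.41 to 9.29 in Sham. MI 2 was the highest animal and 5 of 8 MI animals exceeded the sham mean. The difference was 0.32 (SE 0.22, 95% interval -0.15 to 0.80, adjusted p = 0.434 by limma), and 0.56 within set A (adjusted p = 0.177). ICAM2, a ligand of leukocyte integrins, ran from 7.15 through 7.90 to 8.26 in MI and from 7.24 through 7.87 to 8.25 in Sham, a difference of 0.07 (-0.26 to 0.39, adjusted p = 0.846). MI 7 was its lowest animal.

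Von Willebrand factor was read by 3 probe sets. VWF Ssc.978.1.S1_at ran from 8.55 through 8.96 to 9.98 in MI and from 8.48 through 8.85 to 10.19 in Sham, a difference of -0.09 (95% interval -0.62 to 0.44, adjusted p = 0.872 by limma). The dimmer Ssc.978.2.A1_at ran from 5.67 through 5.92 to 6.22 in MI and from 5.31 through 5.63 to 5.88 in Sham. For this one all 8 MI animals lay above the sham mean and 5 above every Sham animal. Its difference of 0.30 (SE 0.10, 95% interval 0.09 to 0.51) had an unadjusted p of 0.00824 and an adjusted p of 0.0665, and it passed without Sham 2 (0.34, 0.0399), with array weights (0.0417) and with the animal number as a block (0.0159), in a range of 0.0159 to 0.649 over 28 alternatives. The last, Ssc.978.2.S1_at, was not above background and differed by -0.05 (adjusted p = 0.795). Over the 16 arrays the first and second VWF probe sets ran opposite to each other (Pearson r = -0.52), with a B minus A difference of 1.02 for the first and -0.24 for the second.

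ENG had the widest spread of the 10 genes in Sham. It ran from 8.03 through 8.24 to 9.37 in MI and from 7.80 through 8.35 to 10.10 in Sham, and Sham 7 was the highest. The difference was -0.14 (SE 0.29, 95% interval -0.76 to 0.48, adjusted p = 0.833 by limma). With the array set as a block it was 0.01 (adjusted p = 0.967).

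ENG, TIE1 and the brightest VWF probe set differed between the array sets. In set A the signal of ENG ran from 7.80 through 8.11 to 8.53 (n = 11), and in set B from 8.73 through 9.04 to 10.10 (n = 5). All 5 set B arrays, MI and Sham alike, lay above all 11 set A arrays. Adjusted for group and sex, set B exceeded set A by 1.23 (SE 0.16, adjusted p = 0.000154 by limma), 2.35-fold. VWF Ssc.978.1.S1_at ran from 8.48 to 9.02 in set A and from 9.35 to 10.19 in set B, again without overlap, a difference of 1.02 (SE 0.15, adjusted p = 0.000438). TIE1 ran from 6.81 to 7.45 in set A and from 7.30 to 8.57 in set B, with 4 of the 5 set B arrays above all of set A (0.72, SE 0.15, adjusted p = 0.00405). CDH5 Ssc.75.2.S1_a_at was the fourth that passed (0.58, SE 0.19, adjusted p = 0.0462).

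These 4 of 19 endothelial probe sets were all higher in set B, where 17.6% of all probe sets passed (9.45% higher and 8.2% lower in set B). KDR Ssc.15999.1.S1_at (-0.04), PECAM1 Ssc.6050.1.A1_at (-0.03), ICAM2 (-0.03), TEK Ssc.4753.1.A1_at (-0.26) and CLDN5 (-0.24) did not pass between the sets (adjusted p from 0.27 to 0.949 by limma). Both CDH5 probe sets thus differed in how they followed the sets (0.11 for the brighter, adjusted p = 0.766), and their within-array difference was -0.48 in set B against A (adjusted p = 0.00226 over the pairs of probe sets). That of VWF was 1.26 (adjusted p = 0.000149). Those of PECAM1 (0.04), FLT1 (-0.18) and TEK (-0.04) did not pass between the sets (adjusted p from 0.245 to 0.82 by limma). The share of all pairs that passed between the sets was not counted, so these calls have no rate to be set against. The labels name no reason for the sets, and what else differed between them was not tested.

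**Figure D4:**
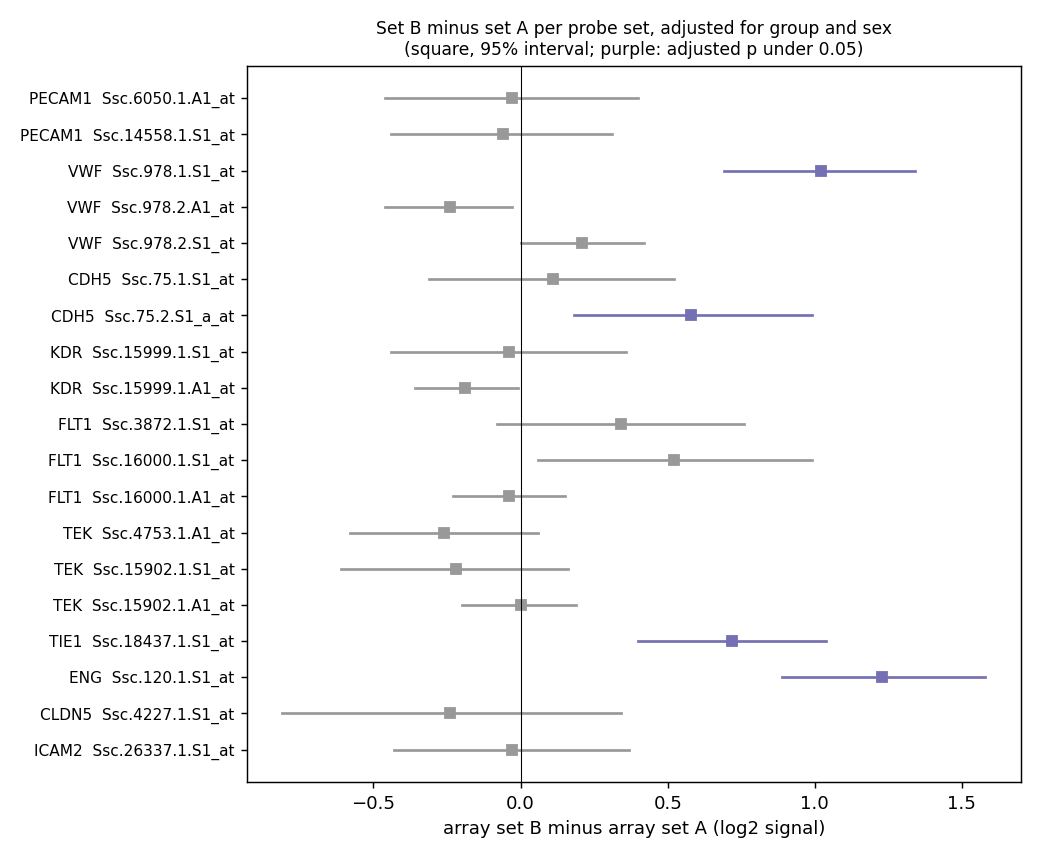
Array set B minus array set A on the log2 scale (horizontal axis) for the 19 endothelial probe sets, with 95% intervals from limma, adjusted for group and sex. Purple marks the 4 that passed: VWF Ssc.978.1.S1_at (1.02), CDH5 Ssc.75.2.S1_a_at (0.58), TIE1 (0.72) and ENG (1.23).

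Single animals were extreme in several of the genes at once. Over the 15 probe sets above background, Sham 7 was the highest of the 16 animals in 7 and had a median rank of 2 from the top. Sham 3 was the lowest in 6, with a median rank of 15. MI 2 was the highest in 3. The ranks were taken over both array sets, and Sham 7 belongs to set B, Sham 3 and MI 2 to set A. Those that Sham 7 topped include the VWF, CDH5, TIE1 and ENG probe sets that passed as higher in set B. How often these animals were extreme over all probe sets was not tested.

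To see which endothelial genes varied together, each value was taken as its deviation from the mean of the arrays of the same group and array set, which leaves the differences between animals. The 45 correlations between the brightest probe sets of the 10 genes had a median of 0.52 over the 16 arrays, and 23 exceeded 0.5. Among all pairs of genes above background the median was 0.01 and 7.14% exceeded 0.5. Points share the arrays and their normalization, and the values are a description. The adhesion and junction genes ran together: Pearson r was 0.88 for VWF and CDH5 (Spearman rho 0.88), 0.80 for PECAM1 and CDH5 (0.82), 0.77 for PECAM1 and CLDN5 (0.75) and 0.73 for CDH5 and ICAM2 (0.79). Leaving out the 2 animals farthest from the median gave r = 0.84, 0.76, 0.62 and 0.74 in that order.

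The receptors KDR, FLT1 and TEK had positive correlations with each other and low ones with PECAM1. KDR and TEK had r = 0.59 (rho 0.61), FLT1 and TEK 0.52 (0.46) and KDR and FLT1 0.50 (0.44), and without the farthest 2 animals 0.59, 0.46 and 0.31. PECAM1 had r = 0.06 with KDR, 0.06 with FLT1 and 0.08 with TEK, and VWF had r = -0.15 with TEK. TIE1 stayed with the adhesion genes (r = 0.78 with CDH5) and with ENG (0.81, rho 0.78, and 0.61 without the farthest 2 animals). For ENG the values ranged more widely, with r = 0.63 for CDH5, 0.61 for ICAM2, 0.59 for KDR, 0.57 for PECAM1 (rho 0.29), 0.57 for TEK, 0.53 for VWF, 0.36 for CLDN5 and 0.35 for FLT1. Without the farthest 2 animals ENG had 0.30 with VWF, 0.20 with CLDN5 and 0.14 with FLT1.

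**Figure D5:**
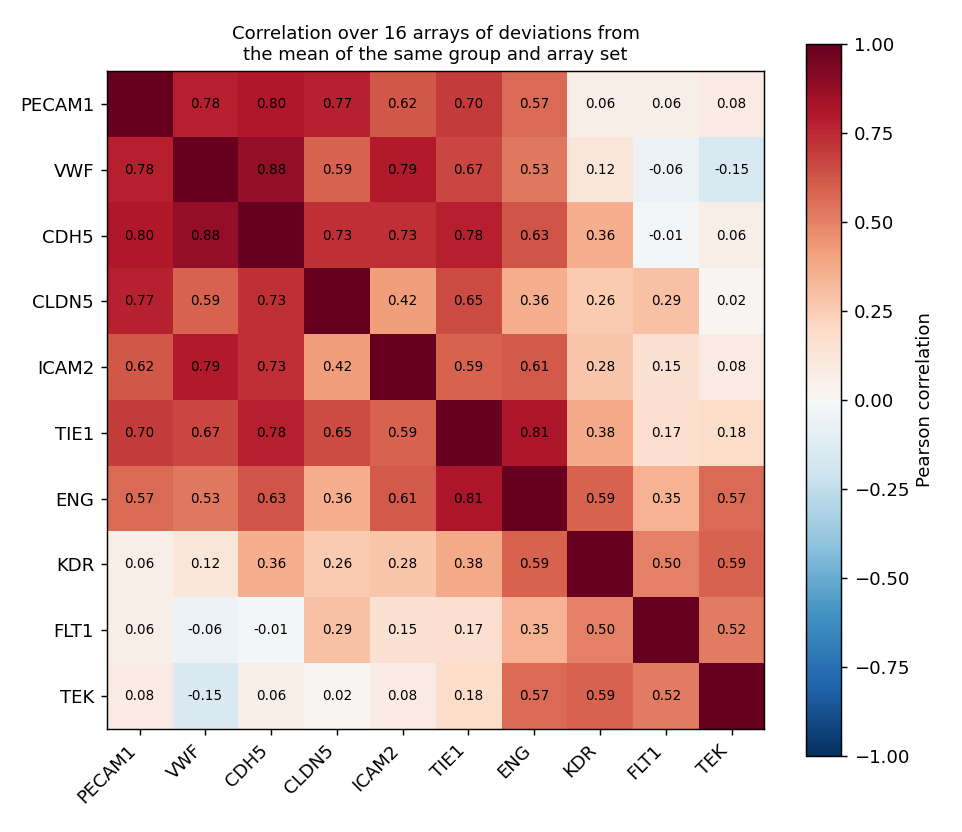
Pearson correlation between the 10 endothelial genes over 16 arrays, on deviations from the mean of the same group and array set. PECAM1, VWF, CDH5, CLDN5, ICAM2 and TIE1 correlate with each other (0.42 to 0.88) and the pairs among KDR, FLT1 and TEK reach 0.50 to 0.59, while PECAM1 with KDR, FLT1 or TEK stays at 0.06 to 0.08.

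By the same measure the gene most like each of the 10 was sought among 5925 genes above background. TIE1 was most like EGFL7, a secreted protein of endothelium (r = 0.92, rho 0.86, 0.82 without the farthest 2 animals). VWF was most like COL4A2, a chain of basement membrane collagen (r = 0.91, rho 0.84), PECAM1 like MECOM, a transcription factor (r = 0.89, rho 0.90), and CDH5 like MYH9, a non-muscle myosin (r = 0.89, rho 0.79). KDR was most like HYAL3 (r = 0.89), TEK like HSPA8, a heat shock cognate (0.85), FLT1 like SLC7A4 (0.83), ENG like CDC42EP1 (0.88), CLDN5 like PPP1R16B (0.85) and ICAM2 like KCTD20 (0.87). These are the highest of many values each. For ENG the correlation dropped to 0.64 without the farthest 2 animals. None of these 10 genes passed between MI and Sham by limma (adjusted p from 0.721 to 0.942).

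The difference between MI and Sham did not pass as a function of labelled sex for any endothelial probe set. The females include MI 7, and the males hold 2 set B arrays in Sham and 0 in MI. In females 0 of the 19 passed between MI and Sham by limma, against 2.85% of all probe sets, and 0 had an unadjusted p under 0.05, against 16.2% of all. In males 1 passed, the KDR probe set below background (0.42, adjusted p = 0.0458), against 3.4% of all. It did not pass without MI 7 (0.42, adjusted p = 0.0501), with the array set as a block (0.33, 0.108) or within set A (0.29, 0.289). In males 5 had an unadjusted p under 0.05, against 19% of all. KDR Ssc.15999.1.S1_at averaged 5.85 ± 0.03 in MI males and 5.25 ± 0.48 in Sham males (n = 4 each, difference 0.60, adjusted p = 0.143 by limma), and 5.72 ± 0.25 in MI females and 5.55 ± 0.38 in Sham females (0.17, adjusted p = 0.78). Without MI 7 the KDR mean in MI females was 5.61 (n = 3) and the difference 0.06 (adjusted p = 0.958). Within set A the male difference of KDR was 0.39 (adjusted p = 0.461), from 4 MI and 2 Sham males. TEK Ssc.4753.1.A1_at differed by 0.46 in males (adjusted p = 0.203) and by -0.08 in females (0.898), and within set A by 0.33 (0.416) and 0.21 (0.646). The difference of those effects, female minus male, was -0.43 for KDR (SE 0.31, adjusted p = 0.8 by limma) and -0.54 for TEK (SE 0.27, 0.794). With the array set as a block these were -0.40 and -0.34, and within set A -0.20 and -0.12 (adjusted p = 1 for each). For this interaction 0 of the 19 passed by limma, as did 0% of all probe sets, and 0 of the 19 had an unadjusted p under 0.05, against 5.68% of all. Between females and males over both groups 0 of the 19 passed by limma, against 0.0583% of all, and 0 before adjustment, against 3.11% of all.

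Around the 10 genes, the ligands and partners of the same pathways mostly did not pass either. Each gene was read by its brightest probe set, and 7.63% of the 6765 genes passed between MI and Sham, with a median difference of 0.00. Of 9 listed VEGF ligands and co-receptors 3 were measured (VEGFA, VEGFB and NRP2), and limma passed 0 of them (0 before adjustment at 0.05; median -0.10). VEGFA, the main ligand of KDR and FLT1, ran from 9.67 through 10.36 to 11.12 in MI and from 10.34 through 10.67 to 11.11 in Sham. Its difference was -0.31 (SE 0.17, adjusted p = 0.295), but it passed within set A (-0.65, adjusted p = 0.0162). In set B the difference was 0.29 (adjusted p = 0.62), and over 27 alternatives the adjusted p ran from 0.0162 to 0.62. Of the other VEGFA probe sets those above background differed by -0.09 and -0.11 (adjusted p = 0.657 and 0.791), and 1 below background passed at -0.39 (0.00247). NRP2, a co-receptor, differed by 0.13 (adjusted p = 0.532).

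Of 6 listed angiopoietins and receptor partners 3 were measured and 0 passed by limma (0 unadjusted; median 0.09): ANGPT2, the context-dependent ligand of TEK, differed by 0.23 (adjusted p = 0.42) and ANGPT1, its activating ligand, by 0.09 (0.83, below background). Of 12 genes around ENG 5 were measured and 0 passed (0 unadjusted; median 0.02). TGFBR3, the betaglycan co-receptor, differed by -0.24 (adjusted p = 0.637), and ID3, a BMP target, by 0.10 (0.721). TGFBR3 also stood 0.97 higher in array set B (adjusted p = 0.0019), as ENG did.

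Of 45 genes of VEGF receptor signalling 26 were measured, 1 fell and 0 rose, against 7.63% of all genes passing in either direction. An unadjusted p under 0.05 was found for 5, against 23.6% of all probe sets, and the median was -0.02. NFATC1, a calcium-driven factor, fell from 5.15 ± 0.13 to 4.70 ± 0.19 (n = 8 each, adjusted p = 0.00356 by limma), with the MI mean below background. RAC2, a small GTPase of blood cells, differed by -0.28 (adjusted p = 0.0501) and passed without MI 1, MI 6, Sham 3 or Sham 4 (0.0269 to 0.0482) and with an offset of 32 (0.0484), in a range of 0.0269 to 0.456 over 27 alternatives. Of 19 junction and adhesion partners 13 were measured, 1 fell and 0 rose (2 unadjusted, median 0.01), against the same shares. The probe set that fell was that of CTNND1, p120-catenin, which binds VE-cadherin, with a difference of -0.35 (adjusted p = 0.0113, below background). JAM3, a junctional adhesion molecule, differed by 0.30 (adjusted p = 0.0936) and passed within set A (0.43, 0.0287), with array weights (0.0173), without MI 7 (0.049), without MI 7 and with the set as a block (0.0282) and without Sham 7 (0.0235), in a range of 0.0173 to 0.99 over 27 alternatives.

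Of 15 molecules of leukocyte adhesion 11 were measured, 1 rose and 0 fell (2 unadjusted, median -0.09). The shares to set beside these are 7.63% of all genes passing in either direction and 23.6% of all probe sets unadjusted. ITGAV, the integrin alpha-V chain, rose from 8.57 ± 0.18 to 8.95 ± 0.25 (n = 8 each, adjusted p = 0.0226 by limma), and its call did not pass within set A (0.31, 0.128). ITGB3, its partner chain, differed by -0.36 (adjusted p = 0.139). The adhesion molecules of inflamed endothelium, named here after their values were seen, did not pass: ICAM1 differed by -0.55 (adjusted p = 0.517), VCAM1 by -0.39 (0.476) and SELE by -0.71 (0.254, below background by its means). Sham 8 stood far above the rest in each. In Sham 8 the ICAM1 signal was 12.19, and the next highest animal had 8.84. VCAM1 was 12.67 in Sham 8 against 10.92 in the next animal, and SELE was 7.32 against 4.27. For SELE 7 of 8 MI animals lay below every Sham animal, against 2 for VCAM1 and 0 for ICAM1. Every SELE value but that of Sham 8 lay below background. SELP, the selectin of stored granules, was also highest in Sham 8 (6.14, next 5.72). The same animal had the lowest KDR signal of the 16.

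Among 30 other endothelial markers 20 were measured, 1 rose and 1 fell (4 at an unadjusted p under 0.05; median 0.01). NOTCH4, the Notch receptor of endothelium, fell. It ran from 7.73 through 7.88 to 8.44 in MI and from 8.22 through 8.59 to 9.30 in Sham, so that 7 of 8 MI animals lay below every Sham animal. The difference was -0.65 (SE 0.13, adjusted p = 0.006 by limma), -0.59 after blocking on the array set (0.0009) and -0.57 among the arrays of set A (0.00202). In set B alone, with 5 arrays, it was -0.64 (0.399). NOTCH4 was itself 0.47 higher in set B (adjusted p = 0.00877). EDNRB, the endothelin B receptor, rose by 0.43 (adjusted p = 0.0144), a call that did not pass within set A (0.36, 0.104), and a second EDNRB probe set below background passed at -0.29 (0.0375).

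The remaining vascular lists gave 0 passing genes by limma, with the count before adjustment at 0.05 given for each. Of 19 endothelial transcription factors 9 were measured (0 unadjusted; median -0.01), with LMO2 at -0.14 (adjusted p = 0.39) and EPAS1 at -0.13 (0.549). Of 5 lymphatic markers 3 were measured (0 unadjusted; median 0.14); LYVE1, the hyaluronan receptor of lymphatics, differed by 0.28 (adjusted p = 0.525), while another LYVE1 probe set, below background, passed at 0.51 (0.000343). Of 11 pericyte and smooth muscle markers 7 were measured (0 unadjusted; median 0.04), with CNN1, calponin, at 0.41 (adjusted p = 0.385) and ACTA2, smooth muscle actin, at -0.14 (0.532).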

How the data were processed

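The members and gene lists were chosen with earlier results of these data known. Frozen left ventricle was extracted with Trizol and columns and labelled with biotin by the array maker's protocol, per the labels' protocols. The deposited values are log2 signals, judged so from their range (2.87 to 14.9) and equal medians (6.24) on all arrays; the summary method, normalization and software were not stated by any label or file header. They were used unchanged. With arrays, precision depends on how many animals there are and on how widely each probe set varies among them. The 124 control probe sets were left out, and 10069 of the other 23999 carried 1 symbol, 198 several and 13732 none. Symbols came from the platform annotation, updated through RefSeq (Sscrofa11.1; 6700 of 6774 Entrez identifiers matched). The files name no genome build, so no coordinates are given.

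Differences were fitted in R 4.3.3 with limma 3.58.1 (lmFit, eBayes), with a separate mean for every combination of group and sex (4 in all), 12 residual degrees of freedom and 3.28 prior ones. MI against Sham is the mean of the differences in females and in males. Tests were two-sided, with Benjamini-Hochberg adjustment over all probe sets. Exact permutation tests used all 12870 splits of the 16 animals, or all 462 of the 11 in array set A. On simulated data with 23999 probe sets the fit for MI against Sham recovered 63 of 100 changes of 0.5 and 99 of 100 of 1 on the log2 scale. These are not rates for the endothelial probe sets. Above background their SE ran from 0.10 (VWF Ssc.978.2.A1_at) to 0.29 (ENG), and a change is missed more often where the SE is larger. Array sets were split at the largest gap in poly-A (36 probe sets) minus hybridisation control (27) signal.

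Genes named were the 10 genes, the members of the 13 lists that passed or else the lowest p up to 2 per list, and the single gene most correlated with each of the 10. Alternatives were: no sex term, animal number as a block, array set as a block or alone, MI 7 left out with that block, quantile normalization, array weights, the 16000 brightest probe sets, an offset of 32, trend with robust estimation, each animal left out, exact permutation, and the mean over a gene's probe sets. The pairs of probe sets of 1 gene, the difference of the MI effect between array sets, leaving out animals within set A, and the differences within a sex without MI 7 or with the array set as a block or alone were added after seeing the data. The exact permutation test of PECAM1 within set A was not planned either. Animals are separate by the labels; nothing says how they were housed or operated in batches.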

Additional observations from a re-analysis of the deposited data

Results flagged for a closer look

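Each group of 8 was searched for an animal set apart from the others, by the gap to its nearest neighbour over the range of the group, against Dixon's critical value. Of 38 groups 4 were set apart, and chance alone does so for about 1 in 20. Sham 7 was high for TIE1 (8.57, next 7.65, ratio 0.643), and MI 8 was high for TIE1 within MI (7.87, next 7.30, ratio 0.532); both are arrays of set B. MI 2 was high for PECAM1 Ssc.14558.1.S1_at (10.51, next 10.07, ratio 0.53). MI 7 was low for ICAM2 (7.15, next 7.75, ratio 0.539).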

How the results depend on the processing

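Of all probe sets 2527 passed between MI and Sham, 654 when the fit kept only the 16000 brightest and 1 in array set B alone, where 5 arrays remain; leaving out each animal gave 2045 to 2537. Of the endothelial probe sets 1 passed, against 2 without the sex term, 2 with the replicate block, 2 with trend and robust estimation, 3 with array weights, 0 among the 16000 brightest (which leave out the dim KDR probe set) and 0 in set B. Leaving out each animal gave 1 to 4, with 2 without MI 4 and 4 without Sham 2. Between females and males 14 probe sets passed and 0 with the replicate block. The PECAM1 within-array gap was 0.36 to 0.43 without each animal and did not pass in set B (0.26), and the PECAM1 difference within set A was 0.40 to 0.69 without each animal. The KDR minus FLT1 difference of 0.40 was 0.20 in set A.

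Signs turned for differences that had not passed. In set A alone these were PECAM1 Ssc.14558.1.S1_at (0.08), VWF (0.13 and 0.08), CDH5 (0.16 and 0.05), FLT1 (0.19 and 0.19), ENG (0.06), ANGPT1 (-0.05) and EPAS1 (0.00). With the array set as a block they were VWF (0.03), CDH5 (0.01), FLT1 (0.03 and 0.02) and ENG (0.01). Without MI 7 and with that block they were VWF (0.13 and 0.03), CDH5 (0.11 and 0.02), FLT1 (0.05 and 0.02), ENG (0.07) and ID3 (-0.03). Array weights turned CDH5 (0.10) and FLT1 (0.03 and 0.02), and the mean over a gene's probe sets turned VWF (0.05) and FLT1 (0.06). In set B alone they were PECAM1 (-0.21), TEK (-0.10), CLDN5 (-0.19), ICAM2 (-0.47), ANGPT2 (-0.28), ACTC1 (0.10), JAM3 (-0.02), LYVE1 (-0.16) and VEGFA (0.29). Leaving out each animal gave -0.21 to 0.11 for VWF, -0.07 to 0.13 for CDH5, -0.12 to 0.08 and -0.22 to 0.07 for FLT1, -0.27 to 0.10 for ENG and -0.03 to 0.17 for ICAM2. Within a labelled sex, TEK turned in females in set A (0.21), its dimmer probe set in females without MI 7 (-0.03; -0.01 with the array set as a block), and its dimmest in males in set A (-0.04); the female minus male difference of the dimmer one turned in set A (0.05). The cause was not tested.

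Animals of both groups carry the numbers 1 to 8. Same-numbered animals correlated over 0.1 in 5 of 8 pairs (-0.22 to 0.50) and best with their own number in 3 of 8. No rate by chance was computed, so this does not settle whether the numbers mark pairs. The numbers were taken as names. With the replicate block 2395 probe sets passed, and VWF Ssc.978.2.A1_at passed (adjusted p = 0.0159 by limma).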
